A study of Homo sapiens with 16 samples.

Results

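Transcript levels of 9 enzymes of serine synthesis and folate one-carbon metabolism were followed through 16 messenger RNA libraries. These came from MDA-MB-231 and SUM159, 2 established human cell lines labelled as triple-negative breast cancer cells. The enzymes were taken by gene name: PHGDH, PSAT1, PSPH, SHMT1, SHMT2, MTHFD1, MTHFD2, MTHFD1L and ALDH1L2. They are 9 of the 58735 genes in the count table, and all 9 were among the 17647 genes with enough reads to be tested. The series concerns the Src family kinase YES1, cell division and the response to taxanes. Both lines carry the genotype label WT and received either the solvent DMSO or 8 uM of the YES1 inhibitor CH6953755 (YES1i in the labels) for 48 h, with 4 libraries per group. MDA-MB-231 was grown in RPMI and SUM159 (SUM159PT in the sample titles) in Ham's F12, so that a difference between the lines cannot be told apart from one between the media. The series text calls the 4 libraries of a group technical replicates, so the p-values measure only the spread between these libraries.

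Cells make serine from the glycolytic intermediate 3-phosphoglycerate in a sequence catalysed by PHGDH (oxidation), PSAT1 (transamination) and PSPH (dephosphorylation). Serine hydroxymethyltransferases, SHMT1 in the cytosol and SHMT2 in mitochondria, then pass a carbon of serine to tetrahydrofolate and release glycine. In the cytosol the trifunctional enzyme MTHFD1 interconverts the folate-bound carbon units used for purines and thymidylate. In mitochondria MTHFD2 oxidises them and MTHFD1L releases the carbon as formate. ALDH1L2 instead oxidises the folate-bound carbon to carbon dioxide with production of NADPH. Genes of serine synthesis and of the mitochondrial folate branch are known targets of the transcription factor ATF4, which is translated more when amino acids run short or the endoplasmic reticulum is stressed.

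Promoter windows are shown because PHGDH, PSAT1, SHMT2 and MTHFD2 moved together in the results that follow. RefSeq windows on GRCh38.p14, each 250 bases before to 50 bases after an annotated start, were matched for 6 of the 9 genes (PHGDH, PSAT1, SHMT1, MTHFD1, MTHFD2 and MTHFD1L). The unmatched genes were PSPH, SHMT2 and ALDH1L2. In the windows of the matched genes, 3 motifs were searched on both strands: TGATGNAA, the core of the composite element that ATF4 binds, CACGTG, the E-box that MYC binds, and CCAAT, the box that the factor NF-Y binds. CCAAT was added after the sequences had been seen. No match of one motif overlapped a match of another. The stretch before the PSAT1 start, at chr9:78296875-78297124 on the plus strand, holds CCAAT at 3 places, in capitals, and no annotated exon.
PSAT1 upstream stretch: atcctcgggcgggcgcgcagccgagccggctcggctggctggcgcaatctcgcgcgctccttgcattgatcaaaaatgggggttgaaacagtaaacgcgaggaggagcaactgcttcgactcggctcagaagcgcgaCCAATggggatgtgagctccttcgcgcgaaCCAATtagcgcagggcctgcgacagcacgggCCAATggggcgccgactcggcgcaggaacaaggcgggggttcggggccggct
Windows of 30 bases around single matches follow, with the matched letters in capitals. They lie at chr1:119711850-119711879 for PHGDH, at chr2:74198418-74198447 and chr2:74198528-74198557 for MTHFD2, at chr17:18363610-18363639 for SHMT1, which is read from the minus strand, at chr14:64388326-64388355 for MTHFD1 and at chr6:150866346-150866375 for MTHFD1L.
PHGDH, CCAAT: tgagtatttccgtCCAATcaaaaggagact
MTHFD2, CCAAT, farther from the start: ggctcttctggctCCAATcaaaagcagggc
MTHFD2, CCAAT, nearer to the start: catgcggcagggaCCAATgggtggcggagg
SHMT1, CCAAT: cgctgcgccgcagCCAATagcgcgggtgcg
MTHFD1, CACGTG: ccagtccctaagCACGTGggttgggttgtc
MTHFD1L, TGATGNAA: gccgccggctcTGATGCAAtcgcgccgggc
CCAAT was present in a window of each of the 6 matched genes, and 34.6% of all 35116 windows in the RefSeq table hold it. CACGTG was present for MTHFD1 and MTHFD1L (7.26% of all windows), and TGATGNAA for MTHFD1L (3.62% of all windows). A motif counts for a gene if any of its windows holds it (9 windows for the 6 genes), whereas the shares are per window. Counts and shares are therefore not on like units, and enrichment was not tested. A match describes letters in the window and is not a measured binding site.

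Total counts ran from 15876171 to 36261542 per library, and a count of 0, taken as 3 counts, left room for a level of 0.0859 CPM in the deepest library and 0.194 CPM in the shallowest. CPM are read counts per gene scaled to a common library size with edgeR's TMM factors. The limit covers counting error only. Group means of the receptor genes that define triple-negative tumours ran up to 0.608 CPM for ESR1 and 0.034 CPM for PGR, and ERBB2 lay at 108 to 118 CPM. Replicate 2 of SUM159 with YES1i stood apart from the other libraries of its group, with a chi-square per degree of freedom of 11.3 to 21.7. Replicate 1 of SUM159 with DMSO stood apart from replicates 2 and 3 (15.2 and 15.9). Against replicate 4 it gave 6.92, where replicates 3 and 4 gave 6.88. It was also the deepest library, and this measure can grow with depth. Pairs of MDA-MB-231 libraries reached 7.3. All 5 cycling-cell markers fell with YES1i in both lines, from a summed 2190 to 2280 CPM to 812 to 848 CPM in MDA-MB-231 and from 1670 to 1770 CPM to 719 to 840 CPM in SUM159. The summed level of 13 markers of other cell types in MDA-MB-231 was 36.6 to 44.4 CPM with DMSO and 36.9 to 42.4 CPM with YES1i. In SUM159 it was 57.1 to 63.7 CPM with DMSO and 82.0 to 88.8 CPM with YES1i, and 2 of the 13 in MDA-MB-231 and 4 of the 13 in SUM159 were at 0 in all libraries of a group. In MDA-MB-231 mitochondrial ribosomal RNA took 0.644% ± 0.0283 of counts with DMSO and 1.33% ± 0.0502 with YES1i (SD, n = 4, exact two-sided permutation p = 0.0286). In SUM159 it took 0.731% ± 0.0749 and 1.34% ± 0.0977 (SD, n = 4, exact two-sided permutation p = 0.0286, the smallest that 4 against 4 can give). The part of these shifts in the changes of the 9 enzymes was not tested, and in bulk RNA fewer cells of a kind and less RNA per cell cannot be told apart.

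With YES1i, 4 of the 9 genes moved in opposite directions in the 2 lines, and the 2 cytosolic folate enzymes fell in both. In MDA-MB-231, 8 of the 9 genes fell, and the ninth, ALDH1L2, did not pass the test. In SUM159, 5 rose and 2 fell. Calls are at an adjusted p under 0.05 in edgeR's quasi-likelihood test with Benjamini-Hochberg adjustment over all tested genes, and many genes were called. In MDA-MB-231 48.9% of all tested genes were called, 22.1% lower and 26.8% higher. In SUM159 51.6% were called, 25.1% higher and 26.5% lower. The median log2 fold change of the 9 genes was -0.54 in MDA-MB-231 (0.03 over all tested genes) and 0.38 in SUM159 (0.02 over all tested genes). PHGDH, PSAT1, SHMT2 and MTHFD2 fell in MDA-MB-231 and rose in SUM159, a pair of calls made for 1.8% of all tested genes, while the opposite pair, made for 3.37%, held no gene of the 9. SHMT1 and MTHFD1, the cytosolic enzymes of the folate cycle, fell in both lines, as did 14% of all tested genes. Without both SUM159 libraries that stood apart, SUM159 again had 5 genes called higher and 2 lower, with log2 fold changes of 0.90 for PHGDH, 1.10 for PSAT1, 0.40 for SHMT2 and 0.65 for MTHFD2.

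**Figure D1:**
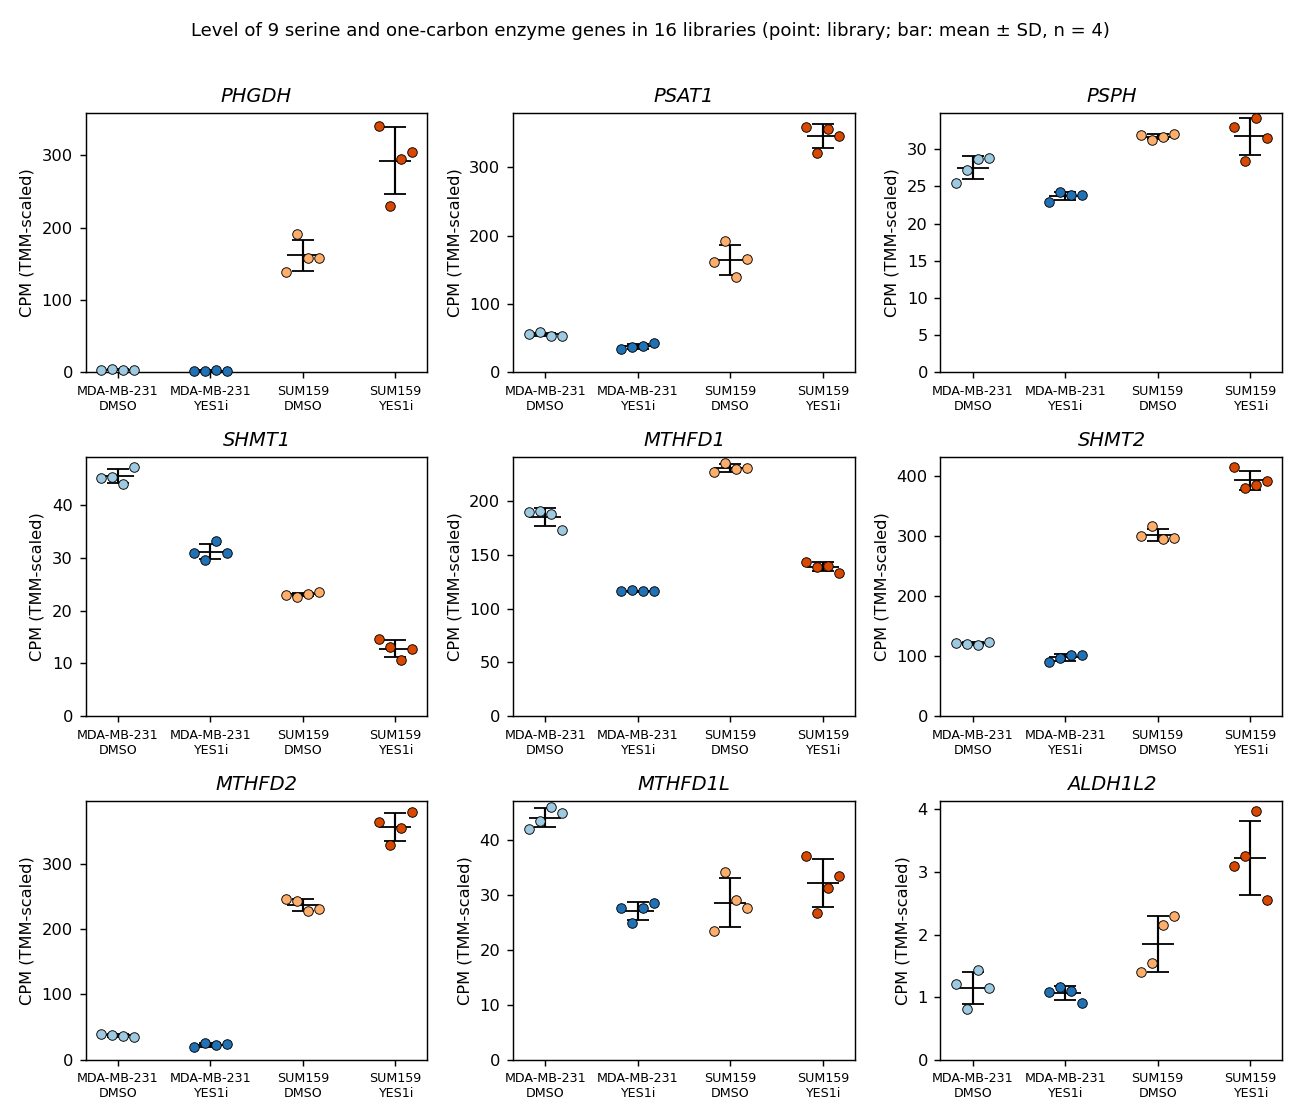
CPM (TMM-scaled, linear axes from 0) of the 9 genes in the 4 groups, with a point per library and the mean ± SD (n = 4). PHGDH lies at 1.65 to 4.74 CPM in all MDA-MB-231 libraries and at 139 to 341 CPM in SUM159, and MTHFD1 is lower with YES1i in both lines.

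PHGDH, which catalyses the first step of serine synthesis, was scarce in MDA-MB-231 and abundant in SUM159. The gene (ENSG00000092621) lies on hg38 chromosome 1 from 119648411 to 119744226. In MDA-MB-231 the libraries held 3.63, 4.74, 2.52 and 3.69 CPM with DMSO and 1.83, 2.43, 2.54 and 1.65 CPM with YES1i. The lowest DMSO library lay within the YES1i range, so the groups overlapped. PHGDH fell by 0.77 on the log2 scale (edgeR adjusted p = 0.0395, SE 0.29), and the adjusted p ran from 0.0114 to 0.1 as each library was left out. The call was lost without MDA-MB-231 DMSO replicate 1 (0.0629), 2 (0.091) or 4 (0.0663), without MDA-MB-231 YES1i replicate 1 (0.0919) or 4 (0.1), and without SUM159 DMSO replicate 3 or 4 (0.05 each, just above the threshold), all edgeR adjusted p-values. It was also lost with limma-voom (adjusted p = 0.202). In SUM159 the libraries held 139, 191, 158 and 158 CPM with DMSO and 341, 230, 295 and 304 CPM with YES1i. All YES1i libraries were above all DMSO libraries. PHGDH rose by 0.86 on the log2 scale (SE 0.13, edgeR adjusted p = 4.63e-05). With DMSO, its level was 44.4-fold higher in SUM159 than in MDA-MB-231 by the fit.

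PSAT1, the aminotransferase of the second step, had the largest rise of the 9 genes in SUM159. The gene is on chromosome 9 from 78297143 to 78330093. MDA-MB-231 libraries held 56.5, 58.5, 53.4 and 52.9 CPM with DMSO and 34.7, 36.3, 38.7 and 42.3 CPM with YES1i, without overlap. SUM159 libraries held 162, 192, 139 and 166 CPM with DMSO and 359, 321, 356 and 345 CPM with YES1i, again without overlap. PSAT1 fell by 0.54 in MDA-MB-231 (SE 0.08, edgeR adjusted p = 2.41e-06) and rose by 1.07 in SUM159 (SE 0.07, edgeR adjusted p = 3.72e-12), both on the log2 scale.

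PSPH, the phosphatase of the last step, moved least of the serine synthesis genes. Its locus is on chromosome 7 from 56011051 to 56051604. MDA-MB-231 libraries held 25.5, 27.2, 28.7 and 28.8 CPM with DMSO and 22.9, 24.2, 23.9 and 23.8 CPM with YES1i, and each YES1i library was below each DMSO library. The fall was small, -0.22 on the log2 scale (SE 0.07, edgeR adjusted p = 0.0104). SUM159 libraries held 31.9, 31.3, 31.6 and 32.0 CPM with DMSO and 33.0, 28.4, 34.2 and 31.5 CPM with YES1i. These ranges overlapped, the fitted log2 change was 0.00 (edgeR adjusted p = 1, SE 0.07), and the approximate 95% interval of the fold ran from 0.912 to 1.10. In MDA-MB-231 the pseudogene PSPHP1 held 1205 counts against 4032 for PSPH (29.9%), and it had 0 counts in all SUM159 libraries. PSPHP1 rose from 6.72 to 8.87 CPM with YES1i in MDA-MB-231 (log2 fold change 0.40, edgeR adjusted p = 0.0398) while PSPH fell, and how reads were divided between the pair was not tested, so the PSPH change in that line is uncertain.

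SHMT1, the cytosolic serine hydroxymethyltransferase, fell in both lines. On hg38 the gene lies on chromosome 17 from 18327860 to 18363563. Levels were 45.1, 45.3, 44.1 and 47.3 CPM with DMSO and 31.0, 29.6, 33.2 and 31.0 CPM with YES1i in MDA-MB-231. In SUM159 they were 23.0, 22.6, 23.1 and 23.5 CPM with DMSO and 14.6, 13.0, 10.7 and 12.8 CPM with YES1i. Neither line showed overlap between groups. SHMT1 fell by 0.54 on the log2 scale in MDA-MB-231 (SE 0.07, edgeR adjusted p = 2.31e-07) and by 0.85 in SUM159 (SE 0.08, edgeR adjusted p = 3.26e-10). SMCR8 overlaps it on the opposite strand over 196 of its 7281 exon bases and rose while SHMT1 fell, from 85.4 to 111 CPM in MDA-MB-231 and from 21.1 to 28.4 CPM in SUM159.

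MTHFD1, the cytosolic trifunctional enzyme, fell by a like amount in both lines. Its position is chromosome 14 from 64388031 to 64463457. MDA-MB-231 libraries held 190, 191, 188 and 173 CPM with DMSO and 116, 117, 116 and 116 CPM with YES1i. SUM159 libraries held 227, 235, 230 and 231 CPM with DMSO and 143, 139, 140 and 133 CPM with YES1i. The groups were far apart in each line, with log2 fold changes of -0.67 (SE 0.05, edgeR adjusted p = 3.62e-13) and -0.73 (SE 0.05, edgeR adjusted p = 6.94e-14). The difference between these changes was 0.06 on the log2 scale (SE 0.06, edgeR adjusted p = 0.525), with an approximate 95% interval of the fold from 0.955 to 1.14.

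SHMT2, the mitochondrial serine hydroxymethyltransferase, moved in opposite directions in the lines. The locus is on chromosome 12 from 57229327 to 57234935. MDA-MB-231 libraries held 122, 120, 118 and 124 CPM with DMSO and 90.3, 96.4, 101 and 102 CPM with YES1i. SUM159 libraries held 299, 317, 295 and 296 CPM with DMSO and 415, 379, 384 and 392 CPM with YES1i. No YES1i library fell within the DMSO range of its line. SHMT2 fell by 0.31 on the log2 scale in MDA-MB-231 (SE 0.05, edgeR adjusted p = 4.35e-06) and rose by 0.38 in SUM159 (SE 0.05, edgeR adjusted p = 8.93e-08).

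MTHFD2, the mitochondrial dehydrogenase and cyclohydrolase, showed the same opposition with larger changes. Its gene is on chromosome 2 from 74198562 to 74217565. MDA-MB-231 libraries held 39.0, 38.4, 36.6 and 35.2 CPM with DMSO and 18.9, 24.9, 22.2 and 24.3 CPM with YES1i. SUM159 libraries held 246, 244, 228 and 231 CPM with DMSO and 364, 329, 355 and 379 CPM with YES1i. Groups did not overlap in either line. MTHFD2 fell by 0.72 on the log2 scale in MDA-MB-231 (SE 0.07, edgeR adjusted p = 5.37e-10) and rose by 0.59 in SUM159 (SE 0.06, edgeR adjusted p = 1.36e-09). SLC4A5 overlaps MTHFD2 on the opposite strand over 1324 of its 4870 exon bases, and held a count 0.222% of that of MTHFD2. How reads in the shared stretch were counted is not given, so the level of MTHFD2 against other genes is uncertain.

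MTHFD1L, which releases formate from mitochondrial folate, fell in MDA-MB-231. On hg38 it is on chromosome 6 from 150865549 to 151101887. MDA-MB-231 libraries held 41.9, 43.4, 46.0 and 44.9 CPM with DMSO and 27.6, 24.8, 27.6 and 28.6 CPM with YES1i, without overlap, and the gene fell by 0.70 on the log2 scale (SE 0.09, edgeR adjusted p = 5.91e-07). SUM159 libraries held 23.4, 34.2, 29 and 27.6 CPM with DMSO and 37.1, 26.7, 31.3 and 33.5 CPM with YES1i. These groups overlapped, and the log2 fold change of 0.18 did not pass the test (SE 0.10, edgeR adjusted p = 0.113, approximate 95% interval of the fold 0.997 to 1.29). It passed with RLE scaling (0.23, adjusted p = 0.0393), with upper quartile scaling (0.30, adjusted p = 0.00779), with DESeq2 (0.23, adjusted p = 0.046), without SUM159 DMSO replicate 2 (0.28, adjusted p = 0.0132) and without SUM159 YES1i replicate 2 (0.26, adjusted p = 0.0129). In the other direction, it was 0.087 without SUM159 DMSO replicate 1 (adjusted p = 0.46) and 0.11 without SUM159 YES1i replicate 1 (adjusted p = 0.333).

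ALDH1L2, the mitochondrial 10-formyltetrahydrofolate dehydrogenase, was the least abundant of the 9. The gene is placed on chromosome 12 from 105019784 to 105084577. MDA-MB-231 libraries held 1.21, 0.817, 1.43 and 1.14 CPM with DMSO and 1.09, 1.16, 1.10 and 0.90 CPM with YES1i. These overlapped, with a fitted log2 change of -0.12 (edgeR adjusted p = 0.738, SE 0.26) and an approximate 95% interval of the fold from 0.643 to 1.31. SUM159 libraries held 1.40, 1.55, 2.16 and 2.29 CPM with DMSO and 3.10, 3.25, 3.98 and 2.55 CPM with YES1i. All YES1i libraries were above the DMSO libraries, a rise of 0.81 on the log2 scale (SE 0.22, edgeR adjusted p = 0.00233). C12orf45, which overlaps ALDH1L2 on the opposite strand over 145 of its 8507 exon bases, held a count 1440% of that of ALDH1L2. Its level was 38.4 CPM with DMSO and 36.1 CPM with YES1i in SUM159 (log2 fold change -0.08, edgeR adjusted p = 0.457).

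**Figure D2:**
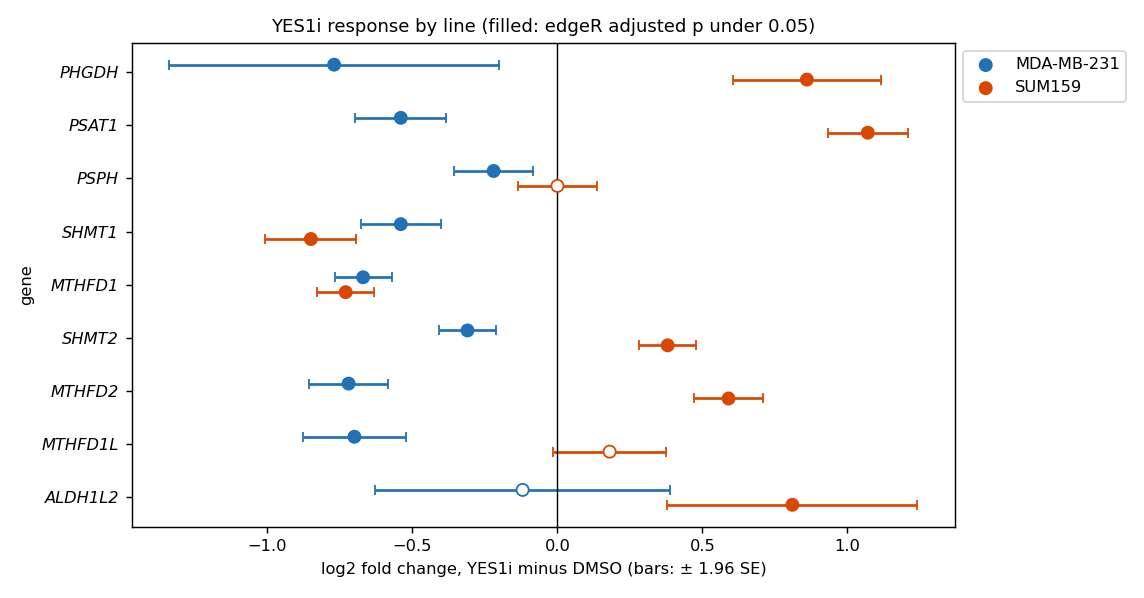
Log2 fold change (YES1i minus DMSO) of the 9 genes in MDA-MB-231 (blue) and SUM159 (orange), with bars of 1.96 SE and filled points for an edgeR adjusted p under 0.05. PSAT1 lies at -0.54 and 1.07, while MTHFD1 lies at -0.67 and -0.73.

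The difference between the lines in the YES1i change was then tested gene by gene. These differences use the same libraries as the changes within the lines. The change was called lower in MDA-MB-231 than in SUM159 for 6 of the 9 genes (12.1% of all tested genes) and higher for 1 (19.1%), where 31.1% of all tested genes were called in either direction. The largest differences were PHGDH at -1.63 (SE 0.31, edgeR adjusted p = 0.00106), PSAT1 at -1.61 (SE 0.11, edgeR adjusted p = 9.63e-12) and MTHFD2 at -1.31 (SE 0.09, edgeR adjusted p = 2.59e-12), all on the log2 scale. MTHFD1L at -0.88 (SE 0.13, edgeR adjusted p = 9.76e-06) and SHMT2 at -0.69 (SE 0.07, edgeR adjusted p = 3.81e-09) were smaller, with adjusted p-values below that of PHGDH. ALDH1L2 differed by -0.93 (SE 0.34, edgeR adjusted p = 0.0357), and without both SUM159 libraries that stood apart the value was -0.79 (adjusted p = 0.108). Its call was also lost without the low-count filter (0.0724) and in 7 of the 16 fits that left out a library. These were the fits without MDA-MB-231 DMSO replicate 1 (0.0592), 3 (0.0922) or 4 (0.0508), MDA-MB-231 YES1i replicate 4 (0.0706), SUM159 DMSO replicate 1 (0.0863) or 2 (0.0613), or SUM159 YES1i replicate 3 (0.0842), all edgeR adjusted p-values. SHMT1, the 1 gene in the other direction, differed by 0.31 (SE 0.11, edgeR adjusted p = 0.0257), having fallen more in SUM159. That call was lost under RLE scaling (adjusted p = 0.0716) and upper quartile scaling (adjusted p = 0.162), without the low-count filter (0.121), and without MDA-MB-231 DMSO replicate 3 (0.0605), MDA-MB-231 YES1i replicate 3 (0.0681) or SUM159 YES1i replicate 3 (0.085). PSPH differed by -0.22 (SE 0.10, edgeR adjusted p = 0.0905), and passed with RLE scaling (-0.27, adjusted p = 0.0323), upper quartile scaling (-0.33, adjusted p = 0.00865) and DESeq2 (-0.27, adjusted p = 0.0204).

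Without inhibitor the lines already differed in all 9 genes, as they did in 76.6% of all tested genes. With DMSO, 7 genes were lower in MDA-MB-231 (38.7% of all tested genes) and 2 were higher (37.8% of all tested genes), and the median log2 difference of the 9 was -0.66 (-0.02 over all tested genes). The lower genes were PHGDH, PSAT1, PSPH, SHMT2, MTHFD1, MTHFD2 and ALDH1L2. MTHFD2 was 6.37-fold higher in SUM159 by the fit, against 44.4-fold for PHGDH. SHMT1, with a log2 difference of 0.98 (SE 0.07, edgeR adjusted p = 4.69e-13), and MTHFD1L, with 0.64 (SE 0.09, edgeR adjusted p = 7.56e-07), were higher in MDA-MB-231.

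Between genes, levels were compared per kilobase of exon. The length counts all annotated exon bases of a gene (9217 for PHGDH, 2762 for PSPH and 2188 for PSAT1). Transcripts present in the cells may be shorter, so the order between genes is uncertain. Before division by length, PHGDH and PSAT1 averaged 161 and 165 CPM in SUM159 with DMSO. In MDA-MB-231 with DMSO the mean ran from PSAT1 at 25.3 CPM per kb and SHMT2 at 25.0 through MTHFD1 at 19.8, PSPH at 9.97, MTHFD1L at 8.77, MTHFD2 at 7.65 and SHMT1 at 6.24 to PHGDH at 0.396 and ALDH1L2 at 0.135. In SUM159 with DMSO it ran from PSAT1 at 75.3 CPM per kb, SHMT2 at 62.3 and MTHFD2 at 48.7 through MTHFD1 at 24.6, PHGDH at 17.5, PSPH at 11.5, MTHFD1L at 5.68 and SHMT1 at 3.16 to ALDH1L2 at 0.217. In this order PHGDH stood ahead of PSPH in SUM159 and far behind it in MDA-MB-231.

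The balance between mitochondrial and cytosolic enzymes was read within each library as a ratio of counts per kilobase, which does not depend on the scaling between libraries. The size of a ratio depends on the annotated exon lengths. Its change with YES1i does not, because the same lengths enter every library. These 6 comparisons were chosen after the levels had been seen. In 2 of them, SHMT2 to SHMT1 and MTHFD2 to MTHFD1 in SUM159, the genes had already separated in opposite directions, so the ratio had to separate and is given as a description with no test. The ratio of SHMT2 to SHMT1 was 19.6, 21.1, 19.2 and 18.9 in SUM159 with DMSO and 42.6, 44.0, 54.2 and 46.3 with YES1i. In MDA-MB-231 it was 4.06, 3.97, 4.02 and 3.95 with DMSO and 4.38, 4.91, 4.56 and 4.94 with YES1i. The mean was higher with YES1i by 1.24 on the log2 scale in SUM159. In MDA-MB-231 it was higher by 0.23, without overlap (exact two-sided permutation p = 0.0286), which did not pass after Benjamini-Hochberg adjustment over the 4 comparisons tested (0.0571).

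The ratio of MTHFD2 to MTHFD1 was 2.08, 2.00, 1.91 and 1.92 in SUM159 with DMSO and 4.90, 4.57, 4.87 and 5.48 with YES1i. The mean was higher with YES1i by 1.32 on the log2 scale. In MDA-MB-231 the ratio was 0.387 ± 0.00856 with DMSO and 0.374 ± 0.0443 with YES1i (SD, n = 4, exact two-sided permutation p = 0.714, Benjamini-Hochberg 0.8), where both genes had fallen. The ratio of MTHFD1L to MTHFD1 was 0.231 ± 0.0328 and 0.433 ± 0.0572 in SUM159 (SD, n = 4, exact two-sided permutation p = 0.0286, Benjamini-Hochberg 0.0571), a separation without overlap that did not pass after adjustment. Most of this shift of 0.91 on the log2 scale restates the fall of MTHFD1 (-0.73), as the change of MTHFD1L (0.18) was not called. In MDA-MB-231 it was 0.445 ± 0.0341 and 0.437 ± 0.0292 (SD, n = 4, exact two-sided permutation p = 0.8, Benjamini-Hochberg 0.8).

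**Figure D3:**
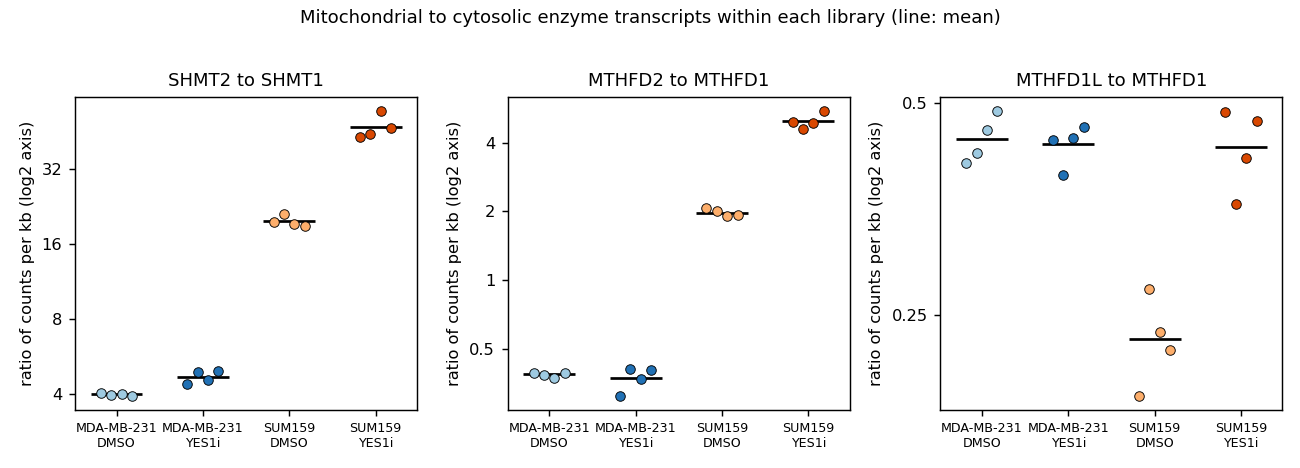
Ratios of mitochondrial to cytosolic enzyme transcripts (counts per kilobase, log2 axes) in each library, with a line at the group mean. In SUM159 the 3 means are 19.7, 1.98 and 0.231 with DMSO and 46.8, 4.96 and 0.433 with YES1i, and in MDA-MB-231 the MTHFD2 to MTHFD1 mean is 0.387 with DMSO and 0.374 with YES1i.

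Across the 16 libraries, with each line's mean log2 level removed, PSAT1 and SHMT2 (Pearson r = 0.955), SHMT2 and MTHFD2 (0.951) and SHMT1 and MTHFD1 (0.950) varied most alike. The coefficient of MTHFD1 with MTHFD2 was 0.058, and that of SHMT1 with SHMT2 was -0.261. The libraries of a group share their treatment, so these coefficients are descriptions. Among other protein-coding genes at 5 CPM or more, those most like PSAT1 were IARS (0.981), SLC7A5 (0.976) and SLC41A1 (0.971), and those most like MTHFD1 were NCAPD3 (0.996), PARP1 (0.994) and MCM4 (0.994). MTHFD2 was most like SAA1 (0.980), IMPDH2 (0.975) and QKI (0.973), and SHMT2 most like RPL3 (0.976), PSMD8 (0.962) and SLC7A5 (0.961). SHMT1 was most like DCTPP1 (0.978), CABLES2 (0.978) and TBCB (0.976), and MTHFD1L most like AHCY (0.966), IRAK1 (0.960) and PDLIM2 (0.954). Likeness was lower for PHGDH, with RPS21 (0.935), RTL10 (0.927) and RPL3 (0.910), for PSPH, with P2RY2 (0.895), TRNP1 (0.875) and MED8 (0.869), and for ALDH1L2, with MILR1 (0.916), WDFY3 (0.867) and CRYBG3 (0.860).

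ATF4 transcript rose in both lines, while PHGDH, PSAT1, SHMT2 and MTHFD2 fell in MDA-MB-231 and rose in SUM159. In MDA-MB-231 ATF4 averaged 135 CPM with DMSO and 199 CPM with YES1i (log2 fold change 0.56, SE 0.06, edgeR adjusted p = 9.92e-10) and in SUM159 449 and 717 CPM (0.68, SE 0.05, edgeR adjusted p = 1.62e-11). The difference between these changes was -0.11 (edgeR adjusted p = 0.282). Of 12 regulators and ATF4 targets outside the 9 genes, 9 rose in MDA-MB-231 and the other 3 were not called, and 7 rose and 2 fell in SUM159 (medians 0.56 and 0.39). The stress genes TRIB3 (20.4 to 44.6 CPM in MDA-MB-231, 65.1 to 118 CPM in SUM159) and DDIT3 (5.82 to 11.7 CPM and 10.8 to 23.6 CPM) rose in both, as did the lipoprotein receptor gene VLDLR (16.5 to 29.5 CPM and 4.17 to 7.90 CPM). Others of the list were named after their values were seen. ATF3 and NFE2L2 rose in MDA-MB-231 and fell in SUM159 (log2 fold changes 0.57 and -0.66 for ATF3, 0.26 and -0.32 for NFE2L2). CHAC1 and SLC7A11 were called higher only in MDA-MB-231, and ASNS, SESN2 and SLC3A2 only in SUM159. The difference between lines was called higher for 5 of the 12, lower for 1 and not for 6. MYC, a growth regulator, rose by 0.16 on the log2 scale in MDA-MB-231 (edgeR adjusted p = 0.0338) and its change of -0.13 in SUM159 did not pass (edgeR adjusted p = 0.0659).

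In de novo purine synthesis, which consumes formyl groups from the folate cycle, 11 of 13 genes fell and 1 rose in MDA-MB-231, and 10 fell and 2 rose in SUM159 (medians -0.43 and -0.40). PFAS fell from 80.8 to 39.3 CPM in MDA-MB-231 and from 86.0 to 51.7 CPM in SUM159, and PAICS from 354 to 205 CPM and from 484 to 326 CPM. ADSSL1, an adenylosuccinate synthase, rose from 0.973 to 1.54 CPM in MDA-MB-231 and from 5.74 to 13.7 CPM in SUM159. IMPDH2, named from this list after its values were seen, fell from 229 to 171 CPM in MDA-MB-231 and rose from 429 to 544 CPM in SUM159. Its difference between lines was -0.76 on the log2 scale (edgeR adjusted p = 1.05e-09). Among the 13 purine genes that difference was called lower for 3, higher for 1 and not for 9. Among the other folate enzymes 2 of 5 rose and 2 fell in each line (medians 0.07 and -0.13). TYMS, thymidylate synthase, fell from 76.1 to 22.9 CPM and from 36 to 12.3 CPM.

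Among 9 tested genes of folate uptake, reduction and polyglutamation, 2 rose and 2 fell in MDA-MB-231, and 1 rose and 4 fell in SUM159 (medians 0.02 and -0.24). The folate receptor FOLR1 rose in both lines, from 5.11 to 17.9 CPM in MDA-MB-231 and from 0.651 to 1.80 CPM in SUM159. GGH, which trims folate polyglutamates, fell in both, from 44.6 to 32.1 CPM in MDA-MB-231 and from 71.8 to 34.9 CPM in SUM159. Of 4 glycine cleavage genes 1 fell in MDA-MB-231 and the others were not called, and 1 rose and 3 fell in SUM159 (medians 0.34 and -0.54). These medians rest partly on very low counts. GLDC averaged 0.0706 and 0.106 CPM in MDA-MB-231, and AMT, the gene that rose in SUM159, 0.213 and 0.823 CPM there. DLD fell in both lines, from 125 to 99.6 CPM and from 87.7 to 67.1 CPM, and GCSH fell in SUM159 from 12.8 to 7.99 CPM.

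In transport and use of serine and glycine, of 13 genes 3 rose and 5 fell in MDA-MB-231, and 6 rose and 5 fell in SUM159 (medians 0.09 and 0.17). The difference between lines was called higher for 3 of the 13, lower for 3 and not for 7, with a median of 0.00. SLC1A4, a neutral amino acid transporter that carries serine, fell from 15.8 to 10.1 CPM in MDA-MB-231 and rose from 19.2 to 45.3 CPM in SUM159, a difference of -1.88 on the log2 scale (edgeR adjusted p = 3.92e-11). SLC38A2, another amino acid transporter, and SPTLC2, a subunit of the serine palmitoyltransferase of sphingolipid synthesis, were named after their values were seen and went the other way. SLC38A2 rose from 309 to 427 CPM in MDA-MB-231 and fell from 882 to 551 CPM in SUM159 (difference 1.14, edgeR adjusted p = 4.46e-14). For SPTLC2 the log2 fold changes were 0.43 and -0.38 (difference 0.81, edgeR adjusted p = 8.02e-10). SFXN2, a sideroflexin, fell from 19.2 to 12.1 CPM in MDA-MB-231 and from 11 to 7.94 CPM in SUM159, and the difference between these changes was not called (edgeR adjusted p = 0.287). The glycine transporter SLC6A9 rose from 14.3 to 25.3 CPM in SUM159, and its log2 fold change of 0.09 in MDA-MB-231 did not pass (edgeR adjusted p = 0.416). In the methionine cycle and transsulfuration, 1 of 9 genes rose and 3 fell in MDA-MB-231, and 4 rose and 2 fell in SUM159 (medians 0.05 and 0.19). CBS, at 0 CPM in all MDA-MB-231 libraries, entered the median of that line as a log2 fold change of 0.0. AHCY, which hydrolyses S-adenosylhomocysteine, fell from 229 to 136 CPM in MDA-MB-231 and rose from 291 to 332 CPM in SUM159. MAT2A, which makes S-adenosylmethionine, rose from 396 to 612 CPM in SUM159, and CTH, of transsulfuration, rose in both lines, from 8.36 to 16.2 CPM and from 13.4 to 19.7 CPM.

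**Figure D4:**
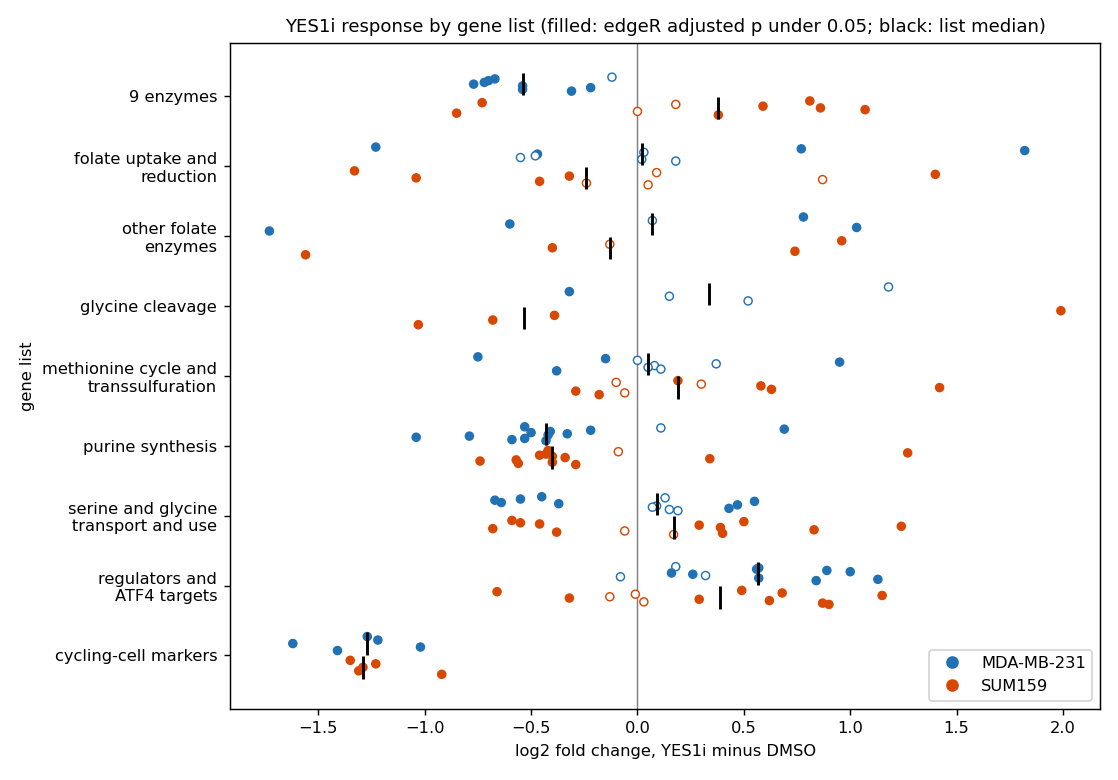
Log2 fold changes (YES1i minus DMSO) of the 9 enzymes and of 8 gene lists in MDA-MB-231 (blue) and SUM159 (orange), with a point per tested gene, filled for an edgeR adjusted p under 0.05, and a black line at each list's median. The medians of the 9 enzymes lie at -0.54 and 0.38, those of purine synthesis at -0.43 and -0.40.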

How the data were processed

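Messenger RNA of 16 libraries in 4 groups was analysed. The authors deposited 1 table of whole-number read counts per gene. HISAT2 2.0.5, featureCounts 1.5.0-p3 and hg38 stand in the submitters' processing notes. How strand, overlaps and multi-mapping were handled, and which annotation was used, is not given in the sources used here, so values of overlapping genes and copies are uncertain. Per the labels, the library kit may or may not have kept the strand. Gene lengths in the table equal GENCODE 29 exon bases for all 9 genes.

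The deposited counts were fitted with edgeR 4.0.16 (R 4.3.3): filterByExpr by group, TMM scaling and 1 robust quasi-likelihood fit of all 16 libraries with F tests, with Benjamini-Hochberg adjustment over 17647 genes and calls at an adjusted p under 0.05. Standard errors come from the F statistic, and intervals are 1.96 SE. The scripts were tested on simulated data. Alternatives were other scalings, filters and thresholds, DESeq2 1.42.0, limma-voom (limma 3.58.1), fits of single lines, a replicate block and each library left out. The 9 genes and all lists were chosen with earlier results of these data known. Named genes were the 9, ATF4, MYC, per list and line the 2 called genes with the largest change at a mean of 5 CPM or more, and for each of the 9 the 3 genes most like it. Some genes that this rule names are not reported here. No set test was run.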

Additional observations from a re-analysis of the deposited data

Results flagged for a closer look

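For 7 of the 9 genes, the change with YES1i differed between the lines by a test of the difference itself (MDA-MB-231 minus SUM159, log2 scale, edgeR with Benjamini-Hochberg adjustment). That test called 31.1% of all tested genes. The differences were -1.63 for PHGDH, -1.61 for PSAT1, 0.31 for SHMT1, -0.69 for SHMT2, -1.31 for MTHFD2, -0.88 for MTHFD1L and -0.93 for ALDH1L2. The calls of SHMT1 and ALDH1L2 were the weak ones: with a library left out they were lost in 3 and 7 of 16 fits, and under 5 and 4 of 9 other settings. The lines were grown in different media, and line and medium cannot be told apart.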

How the results depend on the processing

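For 36 values of the 9 genes (4 comparisons each), 918 values were recomputed. Of these, 873 kept the side of the threshold, 35 lost the call, 10 gained it and 0 called values reversed. An uncalled value could change sign and still count as kept, as for PSPH in SUM159 (-0.0314 to 0.0494 with a library left out). The 1 gene called higher in the difference between lines, SHMT1, became 0 under RLE scaling, upper quartile scaling, no low-count filter, an adjusted p under 0.01 and the replicate block, and ran from 0 to 1 as each library was left out; other than the settings' own construction, the cause was not tested. The ALDH1L2 difference was lost under 4 settings and 7 of 16 fits with a library left out. With DMSO, PSPH was lost between lines without MDA-MB-231 DMSO replicate 1 (0.0613), and ALDH1L2 without MDA-MB-231 DMSO replicate 2 (0.0652) or SUM159 DMSO replicate 3 (0.0583) or 4 (0.0557). The rise of the mitochondrial ribosomal RNA share ran from 0.667 to 0.701 percentage points in MDA-MB-231 and from 0.560 to 0.635 in SUM159 with a library left out, with an exact permutation p of 0.0571, the smallest that 3 against 4 allows.

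Same-numbered libraries did not deviate together (correlation -0.11 to 0.00946 in MDA-MB-231 and -0.377 to -0.08 in SUM159). With the replicate block, PHGDH in MDA-MB-231 (-0.76, edgeR adjusted p = 0.0878) and the differences of SHMT1 (0.31, adjusted p = 0.0587) and ALDH1L2 (-0.93, adjusted p = 0.062) lost their calls, and 8049 genes were called in MDA-MB-231, 8416 in SUM159, 4641 for the difference and 13359 between lines, against 8629, 9105, 5489 and 13514 without it. Over all genes in SUM159, the median log2 change was 0.0225 with TMM and 0.142 with upper quartile scaling, which moved the split of higher to lower calls from 4431 and 4674 to 5985 and 3454. For the difference between lines the split was 3362 and 2127 with TMM, 2779 and 2494 with RLE, 2915 and 2621 with DESeq2 and 2339 and 2987 with upper quartile scaling.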
